A study of Mus musculus with 6 samples.

Results

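Transforming growth factor beta (TGF-beta) is a family of secreted signalling proteins that act on matrix production, immune cells and bone remodelling. The genes described here are its 3 ligands (Tgfb1, Tgfb2 and Tgfb3), 3 receptors (Tgfbr1, Tgfbr2 and Tgfbr3) and 4 latent TGF-beta binding proteins (Ltbp1, Ltbp2, Ltbp3 and Ltbp4). They were chosen by name, and all 10 were found among the 55291 genes of the deposited table. All 10 passed the filter on low counts, which left 15478 genes. Transcripts were counted by RNA-seq in marrow flushed from the femurs of mice aged 6 to 8 weeks, with 3 WT (wild-type) mice (libraries WT 1, 2 and 3) and 3 mice labelled P2rx7 knockout (libraries called knockout A, B and C). Both groups had the same tissue and age range and no labelled treatment. The labels do not give the deleted exons of P2rx7, the cells in which the gene was deleted, the strain or whether the wild types were littermates. P2rx7 encodes a cation channel opened by extracellular ATP. By its title, the study addressed the receptor's role in bone ageing and in marrow mesenchymal stromal cells.

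Ligands are made as latent precursors. Within the cell the mature ligand stays bound to its own propeptide, and most cells link that complex to a latent binding protein, which anchors it in the matrix until integrins, proteases or mechanical force release it. The free ligand binds the type II receptor (Tgfbr2), which recruits and phosphorylates the type I receptor (Tgfbr1). Tgfbr1 in turn phosphorylates Smad2 and Smad3. Tgfbr3, or betaglycan, is a co-receptor that presents ligand, above all TGF-beta 2. In bone, matrix-stored TGF-beta is released during resorption and recruits stromal progenitors.

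Tgfbr1 and Tgfbr2 are shown first by their promoters, since the ratio of these partner receptors is one of the results below. Promoters here are the 250 bases before and the first 50 bases of a transcript, from RefSeq on GRCm38.p6, printed 5′ to 3′ on the gene's strand with GC boxes (GGGCGG on either strand) in capitals. The Tgfbr1 window shown is chr4:47352972-47353271 on the plus strand, and the counted exons of the gene start at the same base, 47353222, as its RefSeq transcript. The Tgfbr2 window is chr9:116175314-116175613 on the minus strand. Its RefSeq transcript starts at 116175363, and the counted exons begin at 116175360.
Tgfbr1: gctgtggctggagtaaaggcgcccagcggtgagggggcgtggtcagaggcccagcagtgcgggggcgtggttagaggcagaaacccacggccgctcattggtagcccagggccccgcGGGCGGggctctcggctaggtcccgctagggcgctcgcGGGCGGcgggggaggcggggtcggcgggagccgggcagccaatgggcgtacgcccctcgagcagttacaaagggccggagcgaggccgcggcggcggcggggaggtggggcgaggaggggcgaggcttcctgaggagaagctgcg
Tgfbr2: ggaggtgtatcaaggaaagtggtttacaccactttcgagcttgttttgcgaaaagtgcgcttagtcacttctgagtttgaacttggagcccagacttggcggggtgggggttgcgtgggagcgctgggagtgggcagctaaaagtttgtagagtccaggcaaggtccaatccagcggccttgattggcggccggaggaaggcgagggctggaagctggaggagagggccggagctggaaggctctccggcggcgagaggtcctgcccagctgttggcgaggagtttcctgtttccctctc
The Tgfbr1 window shown held 2 GC boxes, 34 CpG pairs and 74.7% G and C. A second Tgfbr1 window, chr4:47385966-47386265, is not printed and held 0 GC boxes, 3 CpG pairs and 52.0% G and C. The Tgfbr2 window held 0 GC boxes, 15 CpG pairs and 59.0% G and C. Over all 32851 promoter windows of this length the medians were 7 CpG pairs and 52.7% G and C, and 35.7% held a GC box.

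For the members 12 windows were found, over 8 genes. There was no entry for Tgfb3 or Tgfbr3. A GC box on either strand was present in 6 of the 12 windows, with 6 boxes in that of Tgfb1 and 2 in that of Ltbp2. The 3 windows of Ltbp4 held 3, 7 and 9 boxes, and 2 of these windows overlap. Neither the window of Tgfb2 nor that of Ltbp3 held one. A TATA box (TATAAA, either strand) was found in the window of Tgfb2 alone, and in 13.6% of all windows. An AP-1 site (TGACTCA) was found in that of Ltbp3 alone, and in 5.20% of all windows. A CRE (TGACGTCA), the site of cAMP-response factors, was found in 1 window of Ltbp1, and in 1.79% of all windows. Overlapping GC boxes were counted separately. These matches describe the letters of the windows and were not tested for binding.

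In the genome, members of different roles lie near each other on 2 chromosomes (GRCm38, positions as in the deposited table). Tgfb1 takes up bases 25687002 to 25705077 of chromosome 7 (plus strand), and Ltbp4 lies 1.60 Mb away on the minus strand at 27305136 to 27337692. Tgfb3 and Ltbp2 are both on the minus strand of chromosome 12, at 86056745 to 86079041 and 84783212 to 84876532, with 1.18 Mb between them. The other members are on chromosomes 1 (Tgfb2), 4 (Tgfbr1), 9 (Tgfbr2), 5 (Tgfbr3), 17 (Ltbp1) and 19 (Ltbp3). Counted exons summed to 3383 bases in Tgfb3 and up to 10691 bases in Ltbp1. Exons of some members overlap other genes. The use of strand in counting is not given in the sources used here, so values of such members, Ltbp3 among them, are less certain.

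The libraries held 18716704 to 23575652 counts. Counts of the targeted gene, P2rx7, were 1207 to 1453 in wild types and 722 to 876 in knockouts, lower but not lost (log2 fold change -0.67, adjusted p = 0.0109, edgeR). The labelled tissue was checked against cell type markers. Macrophage markers were abundant (7 of 7 tested, summed level 5563 to 6266 FPKM, fragments per kilobase of exon scaled to library size). Smooth muscle and pericyte markers summed to 1285 to 2449 FPKM, most of it Acta2. None of the 7 erythroid markers passed the filter: Slc4a1 had 0 counts in all libraries and Hbb-bs, a beta-globin gene, had 5 counts in knockout C and 0 elsewhere. Of the 7 B and T cell markers, 2 passed, and Cd3e had 0 counts. Markers of red cell precursors and lymphocytes, which fresh marrow holds, were thus at or near 0, so the cell makeup behind every level here is uncertain against the labelled tissue. The libraries also divide by traces of other tissues: Gh, growth hormone, had 54 to 82 counts in the wild types, 23 in knockout A and 0 in both B and C, while Alb, serum albumin, was counted 46 times in B, 36 times in C and 0 times elsewhere. Knockout A is therefore the only knockout in the set that holds the wild types. Fits that handle this division rest on knockout A alone.

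Tgfb1 and Tgfb3 were the most abundant members, and the order of these ligands differed between libraries. FPKM is scaled per length, so levels can be compared between genes. Tgfb3 averaged 81.1 ± 14.8 FPKM in wild types (SD, n = 3) and Tgfb1 70.7 ± 3.41 FPKM, with overlapping ranges. In knockouts Tgfb1 averaged 76.0 ± 5.13 FPKM and Tgfb3 61.0 ± 5.92 FPKM, and these ranges did not overlap. Within a library the ratio of Tgfb1 to Tgfb3 FPKM was 0.873 in WT 1, 0.706 in WT 2 and 1.11 in WT 3, and 1.08, 1.38 and 1.31 in knockout libraries A, B and C. Tgfb3 thus exceeded Tgfb1 in WT 1 and 2, and Tgfb1 exceeded Tgfb3 in the other libraries. Tgfbr2 followed, at 43.5 ± 3.07 FPKM in wild types, and its range was apart from those of its neighbours in the order.

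Below these came a middle group of close levels. In wild types Tgfb2 (21.0 ± 2.76 FPKM), Tgfbr1 (20.1 ± 1.91), Tgfbr3 (17.9 ± 5.55), Ltbp1 (15.2 ± 3.16), Ltbp3 (14.5 ± 0.523) and Ltbp2 (13.4 ± 3.06) formed a chain in which each range overlapped the next (SD, n = 3). In knockouts Tgfbr3 stood apart above Tgfb2, at 25.4 ± 0.241 FPKM. Ltbp4 was lowest in both genotypes, at 1.93 ± 0.0655 FPKM in wild types and 1.64 ± 0.0955 FPKM in knockouts. The mean level of 9 of the 10 members was above the median of all tested genes. Counts of the members ran from 188 to 8974 per library, and from 1661 upwards without Ltbp4. Exon length is summed over all annotated exons, so FPKM understates a gene whose cells use few of them.

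**Figure D1:**
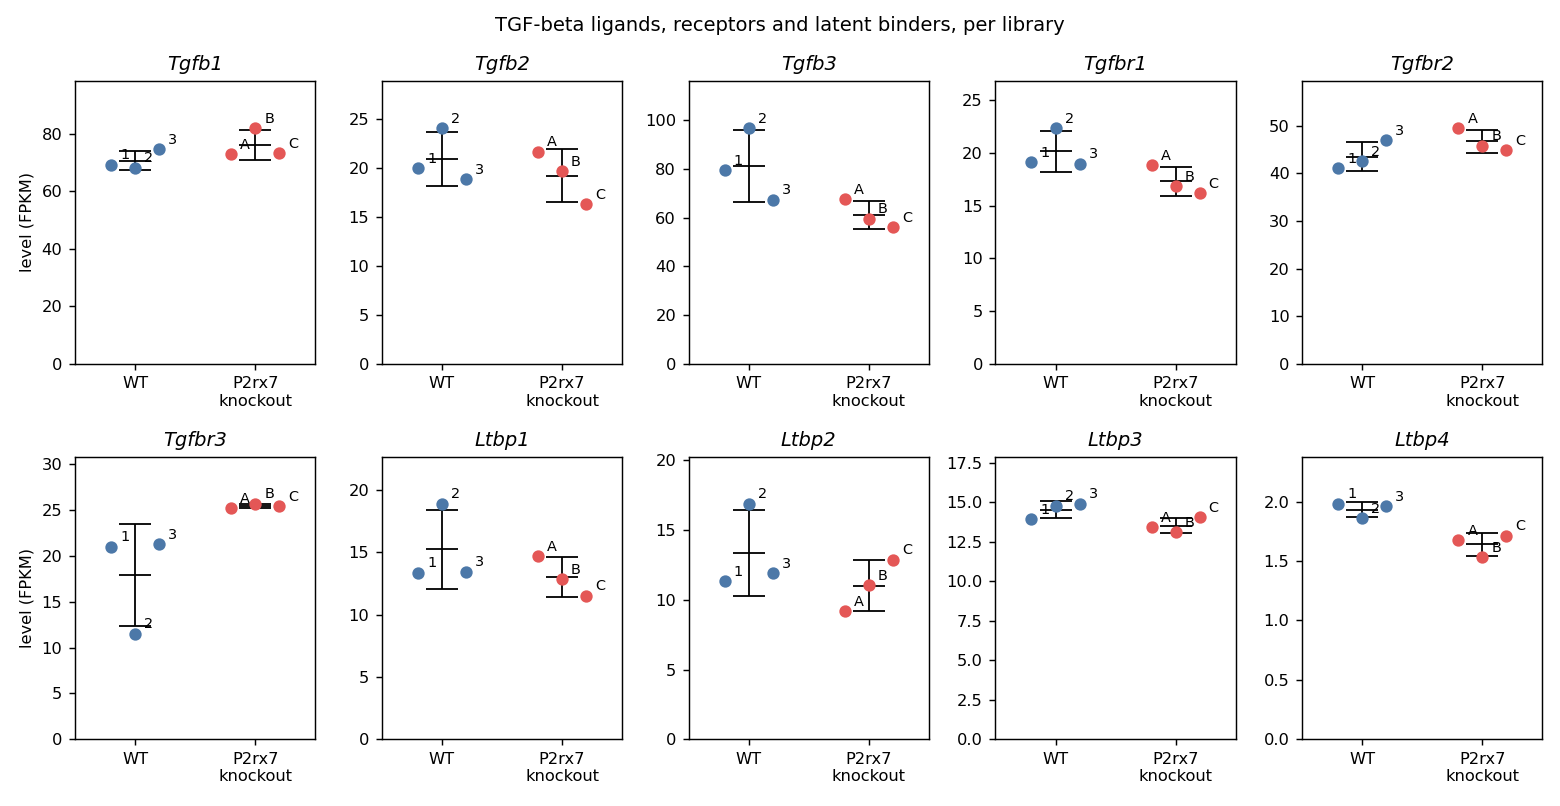
Level of each gene in FPKM (vertical axis, from 0, with its own scale in each panel) in 3 WT (blue, 1 to 3) and 3 P2rx7 knockout libraries (red, A to C); points are libraries, and the bars are the mean ± SD. Every knockout lies above every WT for Tgfbr3 and below every WT for Tgfbr1 and Ltbp4, and WT 2 lies away from WT 1 and 3 in Tgfbr3, Ltbp1 and Ltbp2.

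No member passed the test between genotypes. With edgeR's quasi-likelihood test and Benjamini-Hochberg adjustment over all genes, 0 of the 10 members had an adjusted p below 0.05, against 0.103% of all tested genes (16 genes). At an unadjusted p below 0.05, 1 member was higher in knockouts (Tgfbr3) and 3 were lower (Tgfb3, Tgfbr1 and Ltbp4), where 8.35% of all tested genes were higher and 8.22% lower at that level. Every knockout lay above every wild type in 1 member and below in 2, against 11.1% and 10.7% of all tested genes. Log2 fold changes of knockout over wild type were positive in 3 members and negative in 7, with a median of -0.16, beside a median of 0.00 over all tested genes. Without WT 2 the signs were again 3 and 7, with a median of -0.056, and with the presence of Gh counts as a term they were 4 and 6. The sections below give each role in turn, with the 95% interval of each fold change. The labels describe separate mice but no litters, and p-values measure the spread between these 6 libraries only. In a bulk sample, fewer cells of a type and less RNA per cell cannot be told apart.

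Among the ligands, Tgfb3 had the lowest ratio of knockout to wild type. It was at 79.3, 96.7 and 67.2 FPKM in WT 1, 2 and 3 and at 67.6, 59.5 and 56.0 FPKM in knockout libraries A, B and C. The genotypes overlapped by a narrow margin, since knockout A lay just above WT 3. The log2 fold change was -0.40 ± 0.12 (SE) with a 95% interval of -0.69 to -0.11, and it did not pass (adjusted p = 0.200, edgeR). The knockout level was 75.7% of wild type by the fit, and the interval ran from 62.0% to 92.4%. Without WT 2 the log2 fold change was -0.26, and without WT 3 it was -0.52. Tgfb3 was among the 496 of 15478 tested genes that passed in DESeq2 (adjusted p = 0.0252). It was also among the 970 of 30301 that passed in edgeR on every gene with a count (adjusted p = 0.0117). In both fits that handle the Gh division, which rest on knockout A alone, its log2 fold change was -0.27.

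Tgfb1, the main isoform of blood and immune cells, was at 69.3, 68.2 and 74.6 FPKM in wild types and at 72.9, 82.0 and 73.3 FPKM in knockouts. The groups overlapped, with WT 3 above knockouts A and C. Its log2 fold change was 0.11, with a 95% interval of -0.04 to 0.27 (adjusted p = 0.436, edgeR), so the fit placed the knockout level between 97.2% and 120.4% of wild type. It was 0.052 without knockout B, and 0.040 with the presence of Gh counts as a term. Tgfb2, which depends on betaglycan for high-affinity binding, was at 20.0, 24.1 and 18.8 FPKM in wild types and at 21.7, 19.7 and 16.3 FPKM in knockouts. WT 2 was the highest and knockout C the lowest library. The log2 fold change was -0.12 (95% interval -0.38 to 0.15, adjusted p = 0.655, edgeR). It was -0.010 without WT 2 and turned to 0.045 with the presence of Gh counts as a term.

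The makeup of the ligand pool followed these values. Tgfb1 made up 41.1%, 36.1% and 46.4% of summed ligand FPKM in WT 1, 2 and 3 and 45.0%, 50.9% and 50.3% in knockout libraries A, B and C. The mean share was 41.2 ± 5.17% in wild types and 48.7 ± 3.27% in knockouts (SD, n = 3), and the groups overlapped (exact permutation p = 0.2, two-sided; 3 against 3 cannot give less than 0.1). Tgfb3 made up 41.8% to 51.2% in wild types and 36.9% to 41.7% in knockouts, and Tgfb2 11.2% to 13.4% over all libraries. The difference in the Tgfb1 share was 7.51 percentage points, and it was 4.95 without WT 2 and 3.75 among the 4 libraries with Gh counts. Summed ligand FPKM was 161 to 189 in wild types and 146 to 162 in knockouts.

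Of the receptors, Tgfbr3 was higher and Tgfbr1 lower in every knockout than in every wild type, and neither passed the test. Tgfbr3 was at 21.0, 11.5 and 21.2 FPKM in WT 1, 2 and 3 and at 25.2, 25.6 and 25.4 FPKM in knockout libraries A, B and C. The coefficient of variation of the knockouts was 0.948%, while WT 2 was at 0.545 times the mean of the other wild types. Its log2 fold change was 0.51 ± 0.20 (SE; 95% interval 0.04 to 0.98, adjusted p = 0.269, edgeR). Without WT 2 it was 0.27 (adjusted p = 0.0752, edgeR) and without WT 3 it was 0.65 (adjusted p = 0.150, edgeR). It was 0.49 with the presence of Gh counts as a term. The gene passed in edgeR on every gene with a count (adjusted p = 0.0289) and not in DESeq2 (adjusted p = 0.486).

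Tgfbr1, the kinase that signals to the Smads, was at 19.1, 22.3 and 19.0 FPKM in wild types and at 18.8, 16.8 and 16.2 FPKM in knockouts. Knockout A lay just below WT 3, so the groups were apart by a narrow margin. Its log2 fold change was -0.21 ± 0.08 (SE; 95% interval -0.39 to -0.03, adjusted p = 0.240, edgeR). Its value without WT 2 was -0.14, and it was -0.10 with the presence of Gh counts as a term. Tgfbr2, the ligand-binding kinase, was at 41.1, 42.5 and 47.0 FPKM in wild types and at 49.5, 45.8 and 44.8 FPKM in knockouts, with WT 3 above knockouts B and C. Its log2 fold change was 0.11 (95% interval -0.04 to 0.26, adjusted p = 0.438, edgeR). It ran from 0.069 without WT 1 to 0.17 without WT 3, and it was 0.18 with the presence of Gh counts as a term.

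The ratio of the partner receptors separated the genotypes. Single genes did so in 11.1% (knockouts higher) and 10.7% (knockouts lower) of all tested genes, and the share over other ratios was not computed. The Tgfb3 share of ligand FPKM, the summed binder FPKM and the ratio of Tgfbr3 to Tgfbr1 separated the genotypes too. The other shares of ligands and of binders, the summed ligand FPKM and its ratio to the binders overlapped. So did the ratio of Tgfb1 to Tgfb3. Tgfbr1 and Tgfbr3 separated the genotypes as single genes, so ratios that hold them partly repeat this. Log2 of Tgfbr1 over Tgfbr2 FPKM was -1.11, -0.93 and -1.31 in WT 1, 2 and 3 and -1.39, -1.44 and -1.47 in knockout libraries A, B and C. All wild types lay above all knockouts, and the knockouts lay close together. The mean difference of the log2 ratio was -0.32 (p = 0.1, the smallest that the exact two-sided permutation test can give here). It was -0.23 without WT 2. Among the 4 libraries with Gh counts, where knockout A alone stands for the knockouts, it was -0.28. In other terms Tgfbr2 was 2.18 ± 0.289 times Tgfbr1 in wild types and 2.71 ± 0.0728 times in knockouts (SD, n = 3). A ratio within a library does not depend on how the libraries are scaled to each other.

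All 4 latent binding proteins had negative log2 fold changes, and none passed. Ltbp4, which binds TGF-beta 1 and elastic fibres, was at 1.98, 1.86 and 1.96 FPKM in wild types and at 1.68, 1.53 and 1.71 FPKM in knockouts. Every knockout lay below every wild type at this low level. The log2 fold change was -0.23 ± 0.08 (SE; 95% interval -0.42 to -0.04, adjusted p = 0.237, edgeR). It ran from -0.26 to -0.19 when each library was left out in turn, and it was -0.21 with the presence of Gh counts as a term.

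In Ltbp1 and Ltbp2 the SD of the wild types exceeded the difference between genotype means. Ltbp1, the binder most often found with the small latent complex, was at 13.4, 18.9 and 13.4 FPKM in wild types and at 14.7, 12.8 and 11.5 FPKM in knockouts. Ltbp2, which does not bind latent TGF-beta covalently and is a microfibril protein, was at 11.3, 16.9 and 11.9 FPKM in wild types and at 9.17, 11.0 and 12.9 FPKM in knockouts. WT 2 was the highest library in both, at 1.41 and 1.45 times the mean of WT 1 and 3. The log2 fold changes were -0.22 for Ltbp1 (95% interval -0.54 to 0.10, adjusted p = 0.467, edgeR) and -0.27 for Ltbp2 (-0.66 to 0.12, adjusted p = 0.457). Without WT 2 they were -0.04 and -0.07. With the presence of Gh counts as a term they were -0.06 and -0.55.

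Ltbp3, a binder whose loss affects bone and teeth, was at 13.9, 14.8 and 14.9 FPKM in wild types and at 13.4, 13.1 and 14.1 FPKM in knockouts. Knockout C lay above WT 1, so the groups overlapped. Its log2 fold change was -0.10 (95% interval -0.21 to 0.01, adjusted p = 0.352, edgeR). With the presence of Gh counts as a term it was -0.12. Ltbp1 made up 33.6 ± 2.17% of summed latent binder FPKM in wild types and 33.2 ± 4.51% in knockouts (SD, n = 3; p = 1, exact two-sided permutation test). That summed level was 40.6 to 52.4 FPKM in wild types and 38.5 to 40.2 FPKM in knockouts, with WT 2 at the top. The sum of ligands was 3.61 to 4.18 times that of the binders over all libraries.

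**Figure D2:**
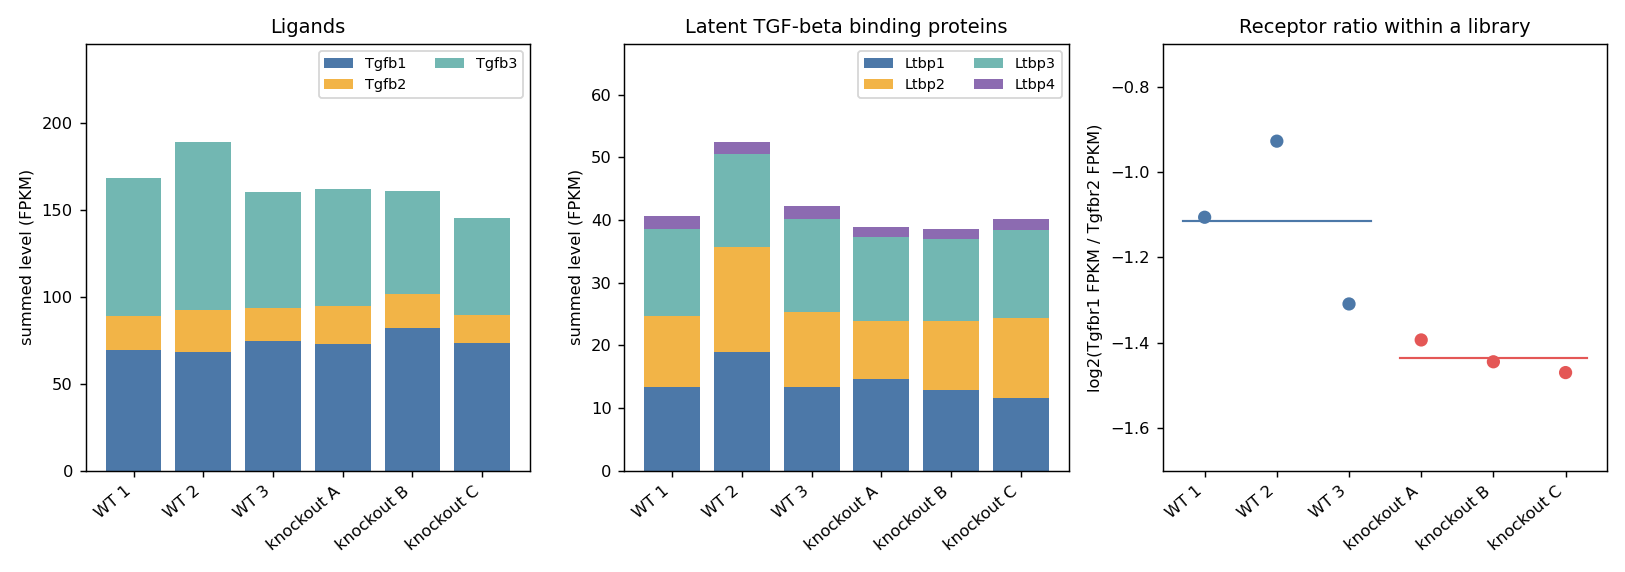
Left and middle: FPKM of the ligands and of the latent binders stacked per library, from 0. Right: log2 ratio of Tgfbr1 to Tgfbr2 FPKM per library (blue WT, red knockout; lines are genotype means; the axis does not start at 0). Tgfb1 takes 36.1% of ligand FPKM in WT 2 and 50.9% in knockout B, WT 2 has the tallest stacks, and the receptor ratio of every knockout lies below every WT.

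WT 2 stood at the edge of the libraries for most members, a description made after its values were seen. It was the highest of the 6 libraries for 5 members (Tgfb2, Tgfb3, Tgfbr1, Ltbp1 and Ltbp2) and the lowest for 2 (Tgfb1 and Tgfbr3). It was neither for Tgfbr2, Ltbp3 and Ltbp4. Over all tested genes WT 2 was the highest or lowest library in 51.6%. The median coefficient of variation of the members was 11.3% in wild types and 7.39% in knockouts, beside 7.90% and 6.72% over all tested genes.

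**Figure D3:**
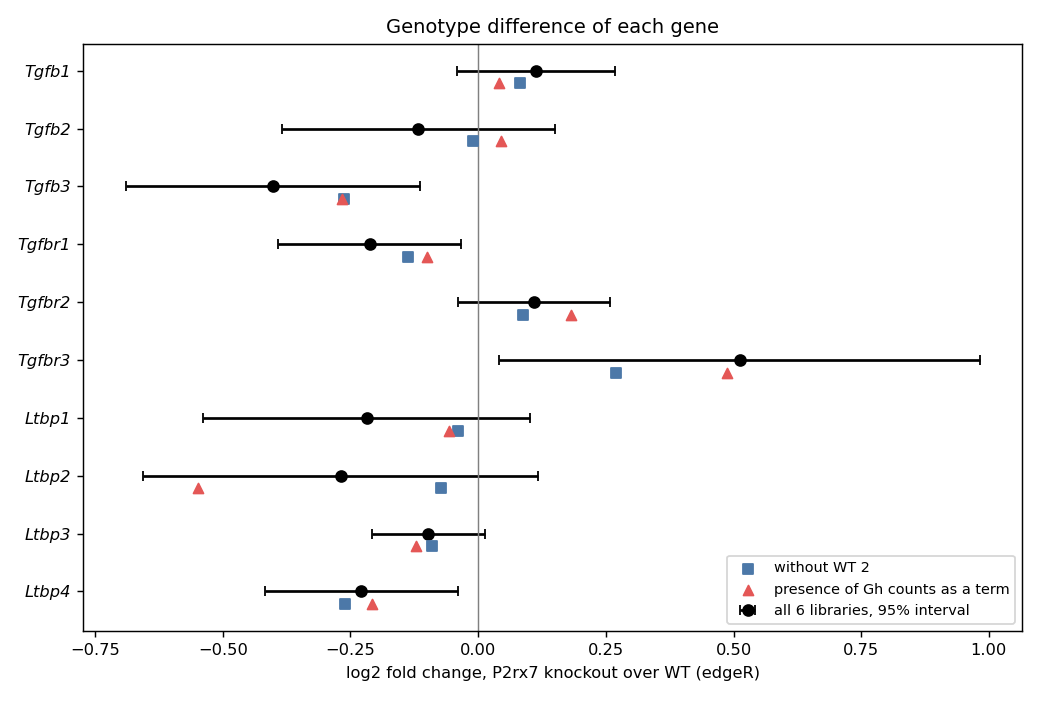
Log2 fold change of P2rx7 knockout over WT (horizontal axis) for each gene by edgeR: black points with 95% intervals are the fit of 6 libraries, blue squares the fit without WT 2, and red triangles the fit with the presence of Gh counts as a term. The values of Tgfb3, Tgfbr3, Ltbp1 and Ltbp2 lie closer to 0 without WT 2, and Tgfb2 changes sign, to 0.045, with the term.

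Of the stromal and osteoblast markers, 3 ordered the libraries as Tgfbr3 did, which was described after the values were seen. The 8 stromal markers had a summed level of 288 to 583 FPKM in wild types, lowest in WT 2, and 743 to 845 FPKM in knockouts, most of it Cxcl12. All 8 had positive log2 fold changes, with a median of 0.76 and of 0.49 without WT 2, and 0 of them passed. None was at 0 counts, and in 5 every knockout lay above every wild type, against 11.1% of all tested genes. Pdgfra, Pdgfrb and Foxc1 overlapped between genotypes. Tgfbr3 put the 6 libraries in the order knockout B, C, A, WT 3, 1, 2. The knockouts lay at 25.2 to 25.6 FPKM, so their order among themselves is uncertain. Of the 8 stromal markers 1 had the same order, Cxcl12, the niche chemokine of stromal cells (594, 571, 494, 388, 328 and 164 FPKM). The osteoblast markers Alpl and Sp7 and the blood cell marker Cd48 had it too, while the other osteoblast markers, Runx2 and Ibsp among them, and the other blood cell markers did not. With Cxcl12 these make 4 of 112 other listed genes, where 1.06% of all other tested genes share that order. The part of stromal cell number in the Tgfbr3 values was not tested.

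Some genes of the contractile and TGF-beta-induced lists, and not others, ordered the libraries as Tgfb3 did, also described after the values were seen. The 5 smooth muscle and pericyte markers had a summed level of 1659 to 2449 FPKM in wild types, highest in WT 2, and 1285 to 1720 FPKM in knockouts, and 0 were at 0 counts. Of them 4 had negative log2 fold changes and 0 separated the genotypes. Tgfb3 put the libraries in the order WT 2, WT 1, knockout A, WT 3, knockout B, knockout C. Knockout A and WT 3 differed little, at 67.6 and 67.2 FPKM. That order was shared by 8 of 112 other listed genes, where 1.24% of all other tested genes share it. Among them were the smooth muscle genes Acta2, Myh11 and Cnn1, the skeletal muscle gene Acta1, the TGF-beta-induced genes Ccn2 and Tgfb1i1, and the Smad co-repressor gene Tgif1. Of the other skeletal muscle markers, Myh4 and Ckm did not pass the filter. Tnnt3 and Actn3 had other orders, with Actn3 lowest in WT 2. Most of the TGF-beta-induced genes and of the Smads and their regulators did not have that order. Tsc22d1, Col3a1 and Klf10, from the induced list, had positive log2 fold changes. The other smooth muscle and pericyte markers did not share it: Rgs5, a pericyte gene, was at 2.39, 1.68 and 3.64 FPKM in wild types and 2.65, 6.25 and 7.10 FPKM in knockouts, and Des, or desmin, like Rgs5, was lowest in WT 2. Acta2, smooth muscle actin, was at 2335, 1968, 1655, 1598, 1416 and 1243 FPKM in that order. The part of contractile cells in the Tgfb3 values was not tested. The other 8 members shared their order with at most 1 listed gene.

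The wider pathway was read from 4 lists holding 40 genes of the table, of which Itgb6, an activating integrin subunit, had at most 3 counts a library and was not tested. Of 39 tested genes 0 passed over all genes, 28 had negative and 11 positive log2 fold changes, and the median was -0.13. At an unadjusted p below 0.05, 15 were lower in knockouts and 2 higher. Every knockout lay below every wild type in 9 and above in 1, against the shares of all genes given above. Without WT 2, 32 of the 39 were negative, and 9 were lower and 1 higher at an unadjusted p below 0.05, where 5.02% of all genes were lower. With the presence of Gh counts as a term 30 were negative, and 4 were lower at that p, where 2.69% of all genes were lower. All 10 genes that hold, anchor or release latent TGF-beta except Nrros had negative values, with a list median of -0.20. Thbs1, thrombospondin 1, which can activate latent TGF-beta, was at 1326, 1602 and 1294 FPKM in wild types and at 1060, 873 and 889 FPKM in knockouts. Its log2 fold change was -0.57 ± 0.12 (SE, adjusted p = 0.131, edgeR). It was among the 496 of 15478 tested genes that passed in DESeq2 (adjusted p = 1.54e-06).

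The cell-surface anchors of latent TGF-beta differed in sign. Lrrc32, or GARP, which holds it on regulatory T cells, platelets and other cells, was at 36.2, 43.8 and 24.8 FPKM in wild types and at 23.8, 16.3 and 16.5 FPKM in knockouts. Its log2 fold change was -0.88 ± 0.21 (SE, adjusted p = 0.159, edgeR), and it passed without WT 3 (-1.08, adjusted p = 0.0473). Nrros, the anchor of macrophages and microglia, chosen after its values were seen, was at 54.9, 49.9 and 53.9 FPKM in wild types and at 57.8, 60.3 and 58.5 FPKM in knockouts. The log2 fold change of Nrros was 0.16 (95% interval 0.04 to 0.29, adjusted p = 0.221, edgeR). All knockouts lay below all wild types for Lrrc32 and above them for Nrros. Fn1, the fibronectin matrix to which latent complexes attach, was at 850 ± 120 FPKM in wild types and 715 ± 41.5 FPKM in knockouts (SD, n = 3; adjusted p = 0.354, edgeR).

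Accessory receptors and Smads had list medians near 0, though some genes of each were lower. At an unadjusted p below 0.05 (edgeR), 2 of 5 and 4 of 12 were lower in knockouts, and 0 and 1 higher. Of all tested genes 8.22% were lower at that p. Without WT 2, 1 gene of each list was lower at that p, where 5.02% of all genes were. The 5 accessory receptors and decoys had a median log2 fold change of -0.02, with 2 positive and 3 negative. Cd109, a co-receptor that inhibits TGF-beta signalling, was at 9.77 ± 0.439 FPKM in wild types and 7.67 ± 0.520 FPKM in knockouts, with no overlap (log2 fold change -0.34, adjusted p = 0.101, edgeR; 0.00421 in DESeq2). Eng, or endoglin, was at 26.6 ± 1.98 and 26.7 ± 0.0950 FPKM. Pmepa1, a feedback inhibitor, was at 32.3 ± 5.20 and 26.9 ± 1.44 FPKM (SD, n = 3). Among 12 Smads and their regulators, 7 values were negative and the median was -0.07. Smad3 was at 11.2 ± 0.637 FPKM in wild types and 9.64 ± 0.511 FPKM in knockouts, with no overlap (-0.21, adjusted p = 0.184, edgeR). The co-repressors Ski and Tgif1 had log2 fold changes of -0.05 and -0.24, and the ubiquitin ligase gene Smurf2 had -0.10, with adjusted p-values of 0.233 to 0.680 (edgeR).

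Among the pathway lists, TGF-beta-induced genes had the lowest median, -0.34, with 9 of 12 tested genes negative. Without WT 2 the median was -0.17, with 10 negative, above the -0.20 of the latency genes. Ccn2, connective tissue growth factor, was at 321, 446 and 229 FPKM in wild types and at 300, 208 and 174 FPKM in knockouts (log2 fold change -0.54, adjusted p = 0.338, edgeR). Knockout A lay above WT 3, so the groups overlapped. The matrix genes Col5a1, a chain of type V collagen, and Lox, the collagen cross-linking enzyme, separated the genotypes, with log2 fold changes of -0.36 and -0.35 (adjusted p = 0.159 and 0.202, edgeR). Both were among the 496 of 15478 tested genes that passed in DESeq2 (adjusted p = 0.00128 and 0.00990). These genes are also induced by other signals, so their levels do not measure TGF-beta activity.

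**Figure D4:**
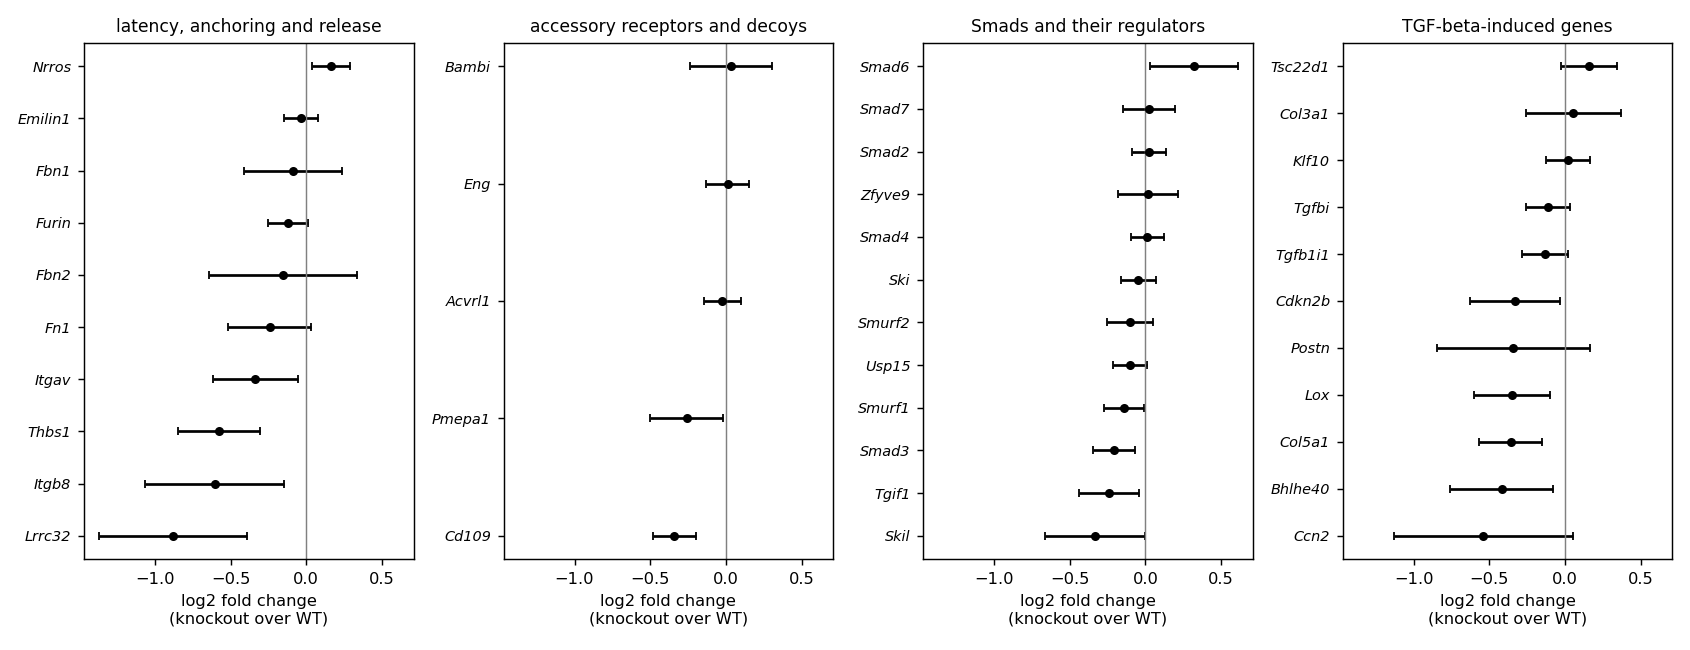
Log2 fold change of P2rx7 knockout over WT (horizontal axis, shared by the panels) with 95% intervals by edgeR for 38 of the 39 tested genes of 4 pathway lists, ordered by value within a list. Of these values 27 lie below 0, with Lrrc32 lowest at -0.88, and 0 of the genes passed over all genes tested.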

How the data were processed

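RNA-seq was done on tissue labelled as flushed femur marrow from 3 wild-type and 3 P2rx7 knockout mice, 1 library each. Per the labels' protocols, libraries were made from 1.3 µg of total RNA with a SMARTer kit. The submitters' processing notes name GRCm38 and mm10, which are the same assembly. For the aligner, counter, annotation and strand setting nothing is stated in these sources. Raw counts and FPKM values per gene symbol were deposited by the authors. The deposited FPKM equalled count over exon length and an effective library size, 0.982 to 1.02 times the column total, to a relative tolerance of 1e-06. The deposited table also holds gene length in bases.

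The 10 genes and the lists were chosen with earlier results of these data known. Counts were filtered by filterByExpr, scaled by TMM and tested over the whole table, two-sided, with edgeR 4.0.16 in R 4.3.3 (glmQLFit, glmQLFTest), with Benjamini-Hochberg adjusted p-values and a threshold of 0.05. The scripts were tested on simulated data. Shares and ratios used exact two-sided permutation tests. Alternatives covered the scaling, the filter, DESeq2 1.42.0, limma 3.58.1, the pseudocount (1 or 0.1 FPKM), each library left out, and the division by Gh counts. List counts without WT 2 and with the Gh term were added after seeing the data. Genes named were all members, and from each pathway list, where none passed, the 2 of highest level and the 2 of smallest p. Of the genes so chosen, 1 is counted in its list but not reported here.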

Additional observations from a re-analysis of the deposited data

How the results depend on the processing

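All 10 members stayed short of the threshold in 15 of 17 alternative settings. Those 15 include the settings, given below, in which the count over all genes was 0. The count of members that passed was 1 with DESeq2 (Tgfb3), where 496 of 15478 tested genes passed. It was 2 in edgeR on every gene with a count (Tgfb3 and Tgfbr3, log2 fold changes -0.41 and 0.51), where 970 of 30301 passed. Of 170 member values under an alternative, 165 kept direction and side of the threshold. The sign of Tgfb2 turned to 0.042 among the 4 libraries with Gh counts and 0.045 with Gh counts as a term, which both rest on knockout A. Over all genes, the count of 16 became 970 on every gene with a count, 496 with DESeq2, 6 with limma-voom, 10 and 2 with limma on log2(FPKM + 1) and log2(FPKM + 0.1), and 0 in both fits for the Gh division (668 and 894 genes at an unadjusted p below 0.05). It ran from 0 (without knockout B or C) to 172 (without WT 3), with 45 without WT 2, 5 without WT 1 and 8 without knockout A. Of the pathway genes, 8 passed on every gene with a count, 4 with DESeq2 (Thbs1, Col5a1, Cd109 and Lox) and between 0 and 1 with 1 library left out, the 1 being Lrrc32 without WT 3. All of these were lower in knockouts. The Ltbp1 share differed by -0.34 percentage points, by -2.57 to 1.94 with 1 library left out and by 4.11 among the 4 libraries with Gh counts. The causes of these shifts were not tested. No paired analysis was possible because the labels give numbers to WT mice but letters to knockouts. With 3 against 3 the exact tests cannot go below 0.1. Counting error was largest for Ltbp4, whose lowest count was 188. It was not set against the narrowest gaps between libraries, such as those of WT 3 and knockout A in Tgfbr1 and Tgfb3. Orders and separations that rest on such gaps are uncertain.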
